A study of Mus musculus with 14 samples.

Results

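Polycomb complex genes were described across 14 primary small cell lung cancers of genetically engineered mice. The 10 genes were chosen by name, not by their levels, as enzymes, core subunits and readers of the Polycomb repressive complexes. All 10 were among the 23284 gene symbols of the deposited count tables, and all 10 had enough reads to be tested, with between 117 and 5589 reads per gene and library. The 7 tumours of genotype Rb1/Trp53/Crebbp are called RPC here, and the 7 of genotype Rb1/Trp53 are called RP. The engineered tumour suppressor genes Rb1 and Trp53 were therefore common to every tumour, and Crebbp, which encodes a histone acetyltransferase and coactivator of the transcription factor CREB, was the gene that set the genotypes apart. The labels name the genotypes only, and the promoter that drove recombination, the deleted exons and the age of the mice are not named in the sources used here. RNA was sequenced from polyadenylated transcripts, and the tables held from 10060969 to 24052799 reads in genes per RPC library and from 10965714 to 23678648 per RP library. The labels number the tumours and do not tie each to a separate mouse, so the p-values here reflect only the variation among these samples, which may be technical.

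Polycomb proteins keep developmental genes silent through a pair of complexes. Polycomb repressive complex PRC2 methylates lysine 27 of histone H3 through EZH1 or EZH2, held by SUZ12 and EED, and PRC1 adds ubiquitin to histone H2A through RNF2 or RING1, paired with a PCGF protein such as BMI1. CBX proteins of canonical PRC1 bind the methyl mark. CREBBP and its paralog EP300 acetylate the same lysine 27, and a methylated lysine cannot be acetylated, which makes the enzymes opposed in textbook accounts. EZH2 is known as an E2F target that is high in dividing cells and in small cell lung cancer, where loss of Rb1 frees E2F, whereas EZH1 is known from non-dividing cells. Only RNA was measured here, and neither histone mark was.

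Promoters of the members were read for letters of those factors, because Ezh2 is a known E2F target and Crebbp was named for its binding to CREB. The windows, from RefSeq on GRCm38.p6, span 250 bases before to 50 after the annotated start and were found for 9 of 10 members (all but Cbx2, with 2 windows for Jarid2). An E2F match was any of TTTCCCGC, TTTGGCGC, TTTCGCGC and TTTGCCGC on either strand, and 2.26% of all 32851 promoter windows held at least 1. Among members, Ezh2 held TTTGGCGC from position 4 after the start and Suz12 held TTTCCCGC from position -219, counting the first transcribed base as 1. The full cAMP response element TGACGTCA, found in 1.79% of windows, was in none of the 9, and its shorter core TGACG or CGTCA, found in 20.8% of windows, was in 4. Shown are the windows of Ezh2 and Suz12, whose capitals mark the E2F letters, and of Ezh1 and Cbx7, the members with the largest differences between genotypes, in whose windows neither of the longer motifs was found. These matches describe the sequence and are not evidence of binding.
Ezh2: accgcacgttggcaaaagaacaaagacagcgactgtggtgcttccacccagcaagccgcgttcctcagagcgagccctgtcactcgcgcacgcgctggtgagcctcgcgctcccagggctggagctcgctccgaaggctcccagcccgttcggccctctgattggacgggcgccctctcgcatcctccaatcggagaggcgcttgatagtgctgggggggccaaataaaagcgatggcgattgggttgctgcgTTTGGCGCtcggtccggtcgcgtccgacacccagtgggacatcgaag
Suz12: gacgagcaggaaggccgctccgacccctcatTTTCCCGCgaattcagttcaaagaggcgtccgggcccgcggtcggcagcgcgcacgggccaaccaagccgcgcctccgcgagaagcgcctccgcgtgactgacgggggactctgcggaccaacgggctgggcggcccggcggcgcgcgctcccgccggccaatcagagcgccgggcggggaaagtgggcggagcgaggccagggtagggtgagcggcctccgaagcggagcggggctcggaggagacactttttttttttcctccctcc
Ezh1: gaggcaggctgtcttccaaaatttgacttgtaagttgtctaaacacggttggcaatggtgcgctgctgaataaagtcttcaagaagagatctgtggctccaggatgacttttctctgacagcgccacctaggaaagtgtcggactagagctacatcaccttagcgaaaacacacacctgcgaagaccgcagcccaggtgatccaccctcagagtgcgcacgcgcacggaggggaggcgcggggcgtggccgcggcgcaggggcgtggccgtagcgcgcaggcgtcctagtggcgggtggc
Cbx7: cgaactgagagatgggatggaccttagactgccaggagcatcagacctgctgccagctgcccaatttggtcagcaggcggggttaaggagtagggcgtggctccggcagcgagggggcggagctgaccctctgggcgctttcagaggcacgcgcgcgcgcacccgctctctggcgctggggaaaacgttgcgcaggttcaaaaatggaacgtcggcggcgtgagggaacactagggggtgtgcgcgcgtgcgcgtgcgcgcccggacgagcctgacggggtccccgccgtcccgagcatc
The windows lie at chr6:47594981-47595280 on the minus strand (Ezh2), chr11:79992856-79993155 on the plus strand (Suz12), chr11:101226414-101226713 on the minus strand (Ezh1) and chr15:79932597-79932896 on the minus strand (Cbx7). They held 31, 41, 23 and 33 CG dinucleotides, against a median of 7 over all windows. The motif shares over all windows were not matched for CG content, so they are no base rate for windows such as these.

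RPC tumours 3, 5 and 6 stood apart from the other 11 libraries in RNA of macrophages and in the mean over non-tumour markers, though not in every cell type. Summed over 8 macrophage markers the level was 3.12 to 6.61 CPM, the usual count of a gene's reads scaled to library size (here TMM-scaled) in these 3, against 451.3 to 2033 CPM in the other RPC tumours and 558.7 to 1515 CPM in RP tumours. The 6 fibroblast markers summed to 3.45 to 125.8 CPM in the 3, and to 255.8 to 602.1 CPM in the other RPC and 212.3 to 818.9 CPM in RP tumours. Endothelial sums overlapped, at 1.96 to 85.0 CPM in the 3 against 42.1 to 251.9 CPM in the other RPC and 74.3 to 206.2 CPM in RP tumours, and RPC tumour 5 was the highest of all 14 in the endothelial marker Kdr (82.8 CPM) and the fibroblast marker Pdgfra (117 CPM). Alveolar type 2 sums were 9.10 to 19.6 CPM in the 3, and RPC tumour 4 was lower still, at 6.90 CPM. The 12 neuroendocrine markers, which define this cancer, were present throughout, at 4455 to 6720 CPM in RPC and 6539 to 12730 CPM in RP tumours. Crebbp averaged 64.7 ± 4.23 CPM in RPC and 76.6 ± 13.8 CPM in RP tumours (SD, n = 7 each). The difference in mean log2 CPM was -0.23 and did not pass (exact two-sided permutation test, p = 0.0554, adjusted over Crebbp and Ep300 0.111), although leaving out RP tumour 2, 4 or 6 brought p under 0.05 (lowest 0.00583). A count over a whole gene, undeleted exons included, does not check a deletion. In bulk tumours fewer cells of a type and less RNA per cell cannot be told apart, which holds for every gene below.

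The comparison of RPC with RP tumours asks which genes differ when Crebbp is added to the engineered alleles. The chromatin reader gene Cbx7 and the methyltransferase gene Ezh1 had the most negative log2 fold changes, -1.07 and -0.76, and the methyltransferase gene Ezh2 the most positive, 0.43. Of the members 0 of 10 were called (edgeR, quasi-likelihood, adjusted by Benjamini-Hochberg at 0.05, lowest adjusted p 0.103), where 2.21% of the 14804 tested genes were. At an unadjusted p under 0.05 there were 2 of 10, both with a negative fold change, where 21.3% of tested genes were under that level. The median log2 fold change of the members was -0.20, against 0.00 over all tested genes, with 4 positive and 6 negative. The RPC and RP ranges overlapped for 10 of 10 members, where 1.14% of tested genes had no overlap. DESeq2 called 1 of 10 (Cbx7, adjusted p = 0.038), where it called 9.20% of genes, and limma-voom called 0, where it called 3.40%. In edgeR fits with the replicate number as a block, with non-tumour markers or with proliferation genes in the model, and without RPC tumours 3, 5 and 6, 0 of 10 were called, where 0.500%, 0.0338%, 0.297% and 0.0716% of genes were. On simulated data with 7 libraries against 7, edgeR found only 27.3% of built-in 2-fold differences. The altered genes were drawn from all tested genes, so that share is not specific to the members. In the members, the 95% intervals of Ezh1, Ring1 and Cbx7 reached past a 2-fold difference, and those of the others did not. A member without a call may still differ between the genotypes.

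**Figure D1:**
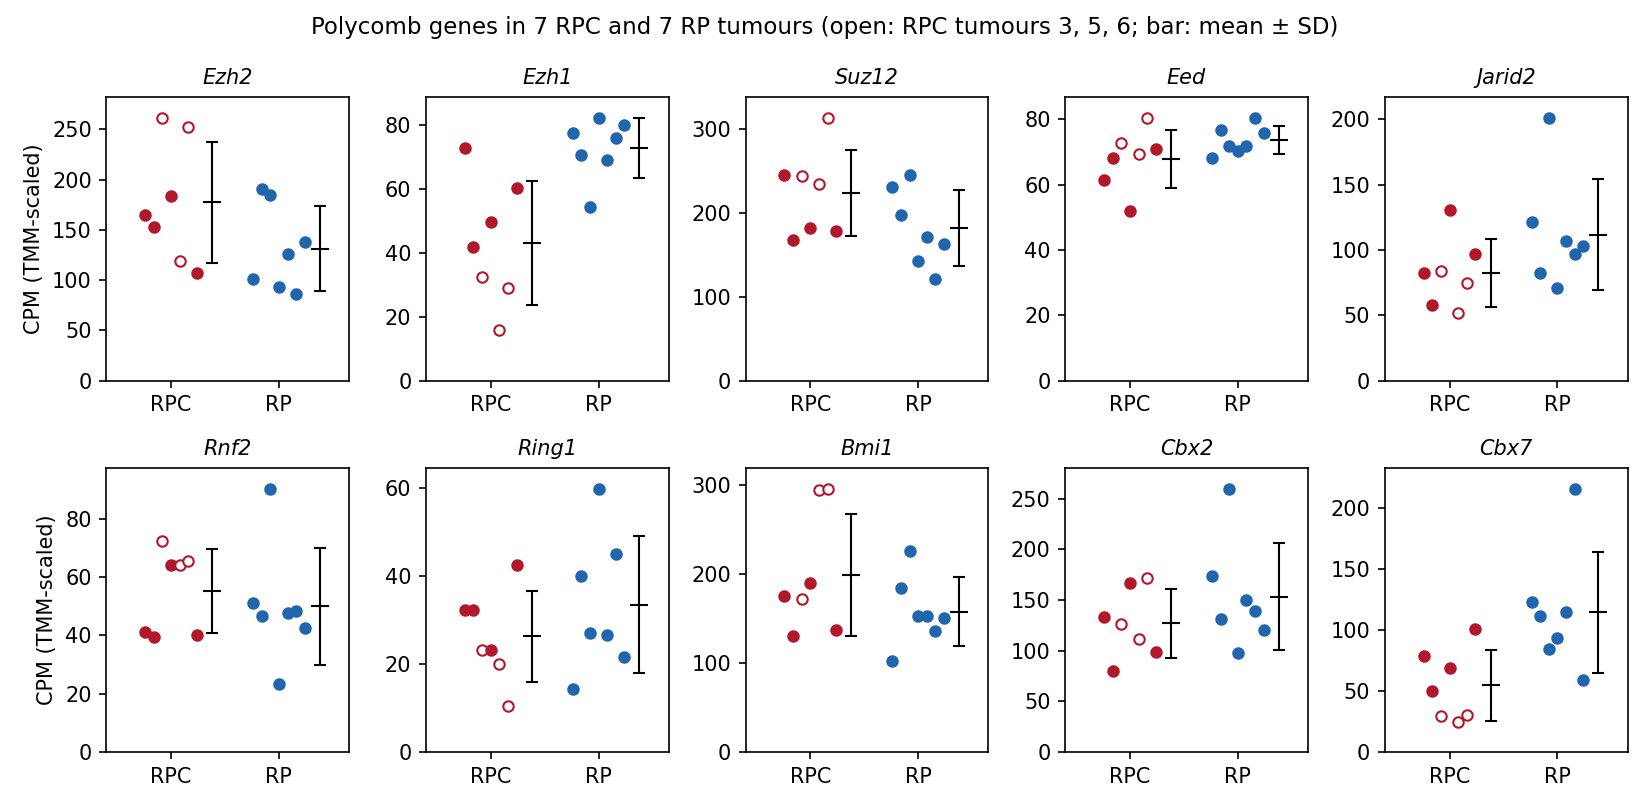
Level of each Polycomb gene in CPM (vertical axes from 0) in the 7 RPC and 7 RP tumours, 1 point per tumour, with open points for RPC tumours 3, 5 and 6 and bars for mean ± SD. The open points of Ezh1, at 15.8 to 32.4 CPM, and of Cbx7, at 24.9 to 30.4 CPM, lie under every RP value, and the genotypes overlap for all 10 genes.

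Ezh2, the main methyltransferase of dividing cells, ran from 107.5 through a median of 164.7 to 261.6 CPM in RPC tumours, against 86.5, 125.6 and 190.2 CPM in RP tumours. RPC tumours 3 and 6 were above every RP tumour and the other 5 lay within the RP range. Its log2 fold change was 0.43 (SE 0.24, 95% interval -0.08 to 0.95, edgeR adjusted p = 0.318). Without RPC tumours 3, 5 and 6 it was 0.21 (adjusted p = 0.814). RPC tumours 3 and 6 also had the highest mean level of 18 proliferation genes among RPC tumours, at 8.10 and 8.27 on the log2 CPM scale. RP tumour 3 was the highest among RP tumours, at 8.22. Other tumours went the other way. RPC tumour 5 was at 8.05 with Ezh2 at 118.6 CPM, and RP tumour 2, highest in Ezh2 among RP tumours at 190.2 CPM, was at 7.61. With the mean of the proliferation genes as a term in the model the log2 fold change of Ezh2 was 0.16 (edgeR adjusted p = 0.764). Whether proliferation accounts for the Ezh2 levels was not tested.

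Ezh1, the paralog with weaker enzymatic activity, ran from 15.8 through a median of 41.9 to 72.6 CPM in RPC tumours, against 54.4, 75.8 and 82.2 CPM in RP tumours. In all, 5 RPC tumours were below every RP tumour, the lowest being RPC tumours 5, 6 and 3, and RPC tumours 1 and 7 were within the RP range. Its log2 fold change came to -0.76 (SE 0.26, 95% interval -1.32 to -0.20, unadjusted p = 0.0116, edgeR adjusted p = 0.124). Without RPC tumours 3, 5 and 6 it was -0.37 (SE 0.18, 95% interval -0.76 to 0.02, adjusted p = 0.443). In a model that also held the tumours' mean level of non-tumour markers it was -0.34 (adjusted p = 0.659). RP tumours varied little in Ezh1, with a coefficient of variation of 12.9%, and RPC tumours more, at 45.2%.

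The balance of the methyltransferase paralogs was read as a ratio. Scaled by transcript length, Ezh2 exceeded Ezh1 in every tumour. The ratio of their CPM per kilobase was 2.69 to 13.2 in RPC tumours, with a median of 5.59, and 1.71 to 5.12 in RP tumours, with a median of 2.61. RPC tumours 2, 3, 4, 5 and 6 were above every RP tumour, RPC tumours 6, 3 and 5 the furthest, at 13.2, 12.2 and 11.3. The mean log2 ratio was 2.71 ± 0.92 in RPC and 1.40 ± 0.61 in RP tumours (SD, n = 7 each), a difference of 1.31 that is given without a test, since the pair was picked with the levels known. It was 0.64 without RPC tumours 3, 5 and 6.

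The core subunits of PRC2 differed less. Suz12, the scaffold on which the enzyme is assembled, ran from 167.8 through 235.2 to 314.2 CPM in RPC tumours, against 121.5, 171.7 and 246.0 CPM in RP tumours. RPC tumour 6 alone lay above the RP range. Suz12 had a log2 fold change of 0.30 (SE 0.18, 95% interval -0.09 to 0.69, edgeR adjusted p = 0.364). Eed, the subunit that reads the methyl mark, was the steadiest member, at 52.1, 69.5 and 80.5 CPM in RPC tumours against 68.2, 72.0 and 80.6 CPM in RP tumours, with coefficients of variation of 13.3% and 5.84%. RPC tumours 4 and 1 lay under the RP range. Its log2 fold change of -0.12 had the narrowest interval of the 10, from -0.35 to 0.11 (adjusted p = 0.54), and was -0.0621 without RPC tumour 4.

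Jarid2, an accessory subunit that helps bring PRC2 to its sites, ran from 51.6 through 82.6 to 130.3 CPM in RPC tumours, against 71.3, 102.7 and 201.4 CPM in RP tumours. RPC tumours 5 and 2 were below the RP range, and RP tumour 3 was far above the other RP tumours, the next being at 121.1 CPM. Jarid2 had a log2 fold change of -0.44 (SE 0.24, 95% interval -0.95 to 0.08, edgeR adjusted p = 0.311), and -0.23 without RP tumour 3 (adjusted p = 0.481).

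In PRC1, the ubiquitin ligase genes overlapped widely between genotypes. Rnf2, which encodes RING1B, ran from 39.5 through 64.0 to 72.4 CPM in RPC tumours, against 23.4, 47.6 and 90.3 CPM in RP tumours. Every RPC value lay inside the RP range, which RP tumour 3 set at the top and RP tumour 4 at the bottom. Its log2 fold change was 0.15 (SE 0.25, 95% interval -0.38 to 0.67, edgeR adjusted p = 0.757). It was 0.36 without RP tumour 3, 0.0237 without RP tumour 4, 0.0721 without RPC tumour 3, and -0.11 without RPC tumours 3, 5 and 6. Ring1, its paralog, was the lowest member in CPM, at 10.4, 23.2 and 42.5 CPM in RPC tumours against 14.3, 27.1 and 59.8 CPM in RP tumours. RPC tumour 6 was lowest of all 14 and RP tumour 4 highest. The log2 fold change of -0.35 had a 95% interval from -1.06 to 0.35 (adjusted p = 0.559), and the value was -0.15 without RP tumour 4 and -0.21 without RPC tumour 6.

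Bmi1, the PCGF partner of canonical PRC1 and a known repressor of the Cdkn2a locus, ran from 130.4 through 175.4 to 296.2 CPM in RPC tumours, against 102.6, 152.6 and 226.0 CPM in RP tumours. RPC tumours 5 and 6, at 294.9 and 296.2 CPM, were above the RP range and the other 5 were within it. For Bmi1 the log2 fold change was 0.33 (SE 0.22, 95% interval -0.13 to 0.80, edgeR adjusted p = 0.391), and 0.22 without either RPC tumour 5 or RPC tumour 6. Without RPC tumours 3, 5 and 6 it was 0.002 (95% interval -0.44 to 0.45), and in the model holding non-tumour markers -0.0713.

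The 2 reader genes had negative log2 fold changes of unequal size. Cbx7 ran from 24.9 through a median of 50.2 to 100.8 CPM in RPC tumours, against 59.0, 111.7 and 215.5 CPM in RP tumours. RPC tumours 2, 3, 5 and 6 were below every RP tumour, and RP tumour 6 was high among RP tumours. For Cbx7 the log2 fold change was -1.07 (SE 0.34, 95% interval -1.80 to -0.33, unadjusted p = 0.00739, edgeR adjusted p = 0.103), and 13.1% of tested genes had a larger absolute value. The call was made without RPC tumour 7 (-1.29, adjusted p = 0.0438) and in no other fit that left out 1 library. Without RPC tumours 3, 5 and 6 the value was -0.62 (SE 0.31, 95% interval -1.29 to 0.05, adjusted p = 0.463), and -0.65 in the model holding non-tumour markers (adjusted p = 0.529).

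Cbx2, the reader gene known for compacting chromatin in development, ran from 80.0 through 126.0 to 171.7 CPM in RPC tumours, against 97.9, 139.5 and 259.7 CPM in RP tumours. RPC tumour 2 lay under the RP range. This gave Cbx2 a log2 fold change of -0.27 (SE 0.22, 95% interval -0.74 to 0.19, edgeR adjusted p = 0.489), and -0.0935 without RP tumour 3 (adjusted p = 0.775). Per kilobase of transcript, the ratio of Cbx2 to Cbx7 was 0.874 to 5.04 in RPC tumours and 0.576 to 2.74 in RP tumours, and RPC tumours 3, 5 and 6 had the 3 highest ratios.

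**Figure D2:**
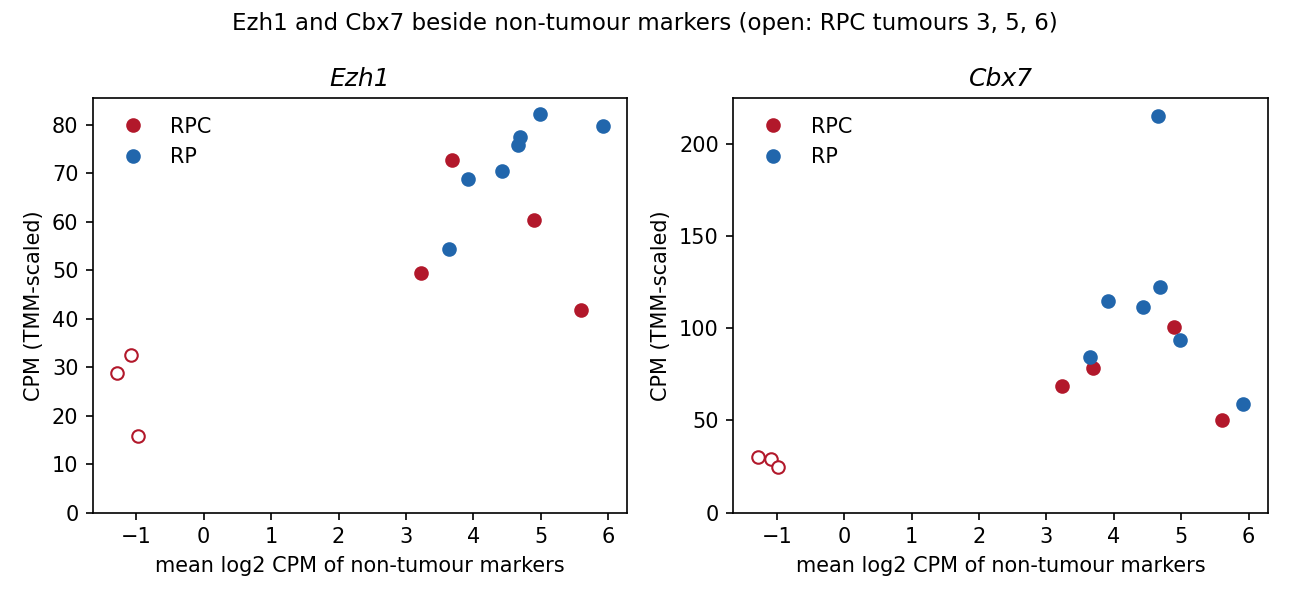
Ezh1 and Cbx7 in CPM (vertical axes from 0) against the mean log2 CPM of markers of macrophages, fibroblasts, endothelial, T and NK, alveolar type 2 and club cells, 1 point per tumour. RPC tumours 3, 5 and 6 (open points) lie at -1.28 to -0.98 on the horizontal axis and hold the 3 lowest values of both genes, while the other 11 lie at 3.23 to 5.92.

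In RPC tumours 3, 5 and 6 low values of Ezh1 and Cbx7 went with low non-tumour markers. Among the other 11 libraries this did not hold throughout. The 3 tumours lowest in both genes were the 3 with almost no macrophage RNA, and their mean of non-tumour markers was -1.28 to -0.98 on the log2 CPM scale against 3.23 to 5.60 in the other RPC tumours and 3.64 to 5.92 in RP tumours. T and NK markers summed to 0.108 to 0.625 CPM in the 3, against 2.68 to 13.1 CPM in the other RPC and 1.99 to 41.0 CPM in RP tumours. In all 3, reads were at 0 for 1 of 8 macrophage, 2 of 5 endothelial, 2 of 5 T and NK and 1 of 4 alveolar type 2 markers, while the endothelial sum of RPC tumour 5, at 85.0 CPM, was above those of RPC tumour 4 and RP tumour 2, at 42.1 and 74.3 CPM. Without these 3 tumours the log2 fold change was -0.37 for Ezh1 and -0.62 for Cbx7, against -0.76 and -1.07 with them. Among the other 4 RPC tumours, Ezh1 was at 41.9 to 72.6 CPM and Cbx7 at 50.2 to 100.8 CPM. RPC tumour 2 had the most macrophage RNA of all 14 and was below every RP tumour in both genes. RP tumour 7, with the highest mean of non-tumour markers (5.92), was the lowest RP tumour in Cbx7, at 59.0 CPM. Its Ezh1 was at 79.8 CPM.

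Levels of different members were compared per kilobase of the longest coding transcript in GENCODE M21, since the sources used here do not name the annotation used for counting. Ezh2 was highest in both genotypes, at 63.6 ± 21.6 CPM per kilobase in RPC and 47.1 ± 15.2 in RP tumours (SD, n = 7 each), followed by Bmi1 at 55.5 ± 19.2 and 44.0 ± 10.8 and Suz12 at 51.3 ± 11.8 and 41.7 ± 10.4. Within tumours, Ezh2 was above Bmi1 in 6 of 7 RPC and 5 of 7 RP tumours, and Bmi1 was above Suz12 in 3 of 7 RPC and 6 of 7 RP tumours. Cbx2 and Eed came next, at 33.3 ± 8.89 and 32.8 ± 4.35 in RPC tumours and at 40.2 ± 13.8 and 35.7 ± 2.08 in RP tumours. In RPC tumours Eed was above Rnf2, the next in order, in 7 of 7. The other genes formed a lower group in RPC tumours, Rnf2 at 17.3 ± 4.47, Cbx7 at 16.1 ± 8.56, Jarid2 at 13.8 ± 4.38, Ring1 at 12.9 ± 5.11 and Ezh1 at 10.2 ± 4.62, with no neighbour in this order higher in more than 4 of 7 tumours. Cbx7 was set differently in RP tumours, at 33.8 ± 14.6 beside Eed, and above Jarid2, at 18.6 ± 7.13, in 6 of 7. Ezh1 was at 17.3 ± 2.23, Ring1 at 16.5 ± 7.68 and Rnf2 at 15.6 ± 6.26 there, and none of these neighbours differed beyond its spread.

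Some members varied together from tumour to tumour. Over the 11 libraries other than RPC tumours 3, 5 and 6, with each genotype's mean removed, Rnf2 and Cbx2 passed by both measures (Pearson r = 0.885, permutation p = 1e-04, adjusted over 45 pairs 0.0045; Spearman rho = 0.882, permutation p = 4e-05, adjusted 0.0018; r = 0.81 without the 2 tumours farthest in Rnf2). Cbx2 and Jarid2 passed by Pearson's r only (r = 0.916, permutation p = 8e-04, adjusted 0.018; rho = 0.80, permutation p = 0.00911, adjusted 0.135; r = 0.758 without the 2 farthest). Over all 14 libraries r was 0.82 for Rnf2 with Cbx2 and 0.763 for Cbx2 with Jarid2. RP tumour 3 was the highest of all 14 libraries in Rnf2, Cbx2 and Jarid2. These relations were looked for after the values were seen. Over the same 11 libraries, genes outside the list reached a higher r, such as Csnk1e with Cbx2 (0.967) and Cops5 with Rnf2 (0.97). How often any pair of genes reaches such an r was not tested, so the relations are not shown to be particular to Polycomb genes. The other 43 pairs did not pass by either measure, Ezh1 and Ezh2 among them (r = -0.453, permutation p = 0.16, adjusted 0.371; rho = -0.373, permutation p = 0.276, adjusted 0.501; r = -0.297 without the 2 farthest).

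The genes whose pattern was most like each member's, over all 14 libraries with genotype means removed, were sought among 11684 genes at 5 CPM or more. Ezh2 was followed most closely by Scnm1 (Pearson r = 0.91), Vrk1 (0.90) and Hdgf (0.90), Suz12 by Kif4 (0.925), Ythdf1 (0.91) and Alkbh8 (0.90), and Eed by Odf2l, Cdc37l1 and Zfp764 (each 0.84). Ezh1 was followed by Ttc22 (0.96), Plekhg3 (0.95) and Kcnq1 (0.93), whose r over the 11 libraries was 0.83, 0.70 and 0.75. Cbx7 was followed by Limk2 (0.88), Elmo3 (0.84) and R3hdml (0.84), at 0.83, 0.65 and 0.67 over the 11. Bmi1 was closest to Rrm2, a subunit of ribonucleotide reductase (0.92), Sept11 (0.91) and Dync1i2 (0.89), Cbx2 to Csnk1e (0.93), Gcsh (0.92) and Ndufa10 (0.90), and Jarid2 to Ctnnal1 (0.91), Cir1 (0.85) and B4galnt4 (0.85). For Rnf2 the closest genes were Cops5 (0.96), Tceb1 (0.94) and Ptma (0.93), all 3 on chromosome 1 with Rnf2 itself, and for Ring1 they included Etohd2 (0.92) and Itfg3 (0.91), the last on chromosome 17 with Ring1. Zfp764 likewise shared chromosome 7 with Eed, and Dync1i2 chromosome 2 with Bmi1. Of the 100 genes most like Rnf2, 61 were on its chromosome, which held 5.74% of the candidates, and for Ring1 43 were, against 4.95%. Bmi1 had 26, against 7.95%, and Suz12 20, against 8.24%, while the remaining members had 2 to 12. Over the 11 libraries Rnf2 had 52 and Ring1 18. Other members were as high as Ring1 there: Suz12 at 26, and Bmi1, Ezh1 (against 8.24%) and Cbx7 (against 4.08%) each at 24. Eed had 12, Cbx2 9, Ezh2 3 and Jarid2 2. The chromosome was looked at after the values were seen. All are descriptions of points that share libraries and depth, and no p is given.

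Other subunits of the Polycomb complexes were read next. Pcgf6, the PCGF protein of a variant PRC1 that also holds Mga and E2f6, was higher in RPC tumours. It was the only one of the 44 other subunits called (1 higher, 0 lower, where 1.09% of tested genes were called higher and 1.12% lower). The gene is on chromosome 19, and whether its location bears on its level was not tested. At an unadjusted p under 0.05, 6 of the 44 were higher and 3 lower, a share near the 21.3% of all tested genes. The median log2 fold change of the 44 was 0.08. With DESeq2 6 of the 44 were called, Scmh1, Kdm2b, Mga and Foxk2 among them, where it called 9.20% of all genes.

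Pcgf6 ran from 44.1 through a median of 49.4 to 72.9 CPM in RPC tumours, against 18.2, 30.2 and 45.4 CPM in RP tumours. RPC tumours other than tumour 1 were above every RP tumour, and RP tumour 3 was the highest RP value. The log2 fold change was 0.87 (SE 0.19, 95% interval 0.47 to 1.28, edgeR adjusted p = 0.0339). Pcgf6 no longer passed when any of RP tumours 2, 4, 5, 6 and 7 or RPC tumours 3, 4 and 6 was left out, with log2 fold changes of 0.80 to 0.89 and adjusted p of 0.0577 to 0.0757. Nor did it pass without RPC tumours 3, 5 and 6 (0.75, adjusted p = 0.203), or in models that held non-tumour markers (0.70, 0.257) or proliferation genes (0.72, 0.0926).

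**Figure D3:**
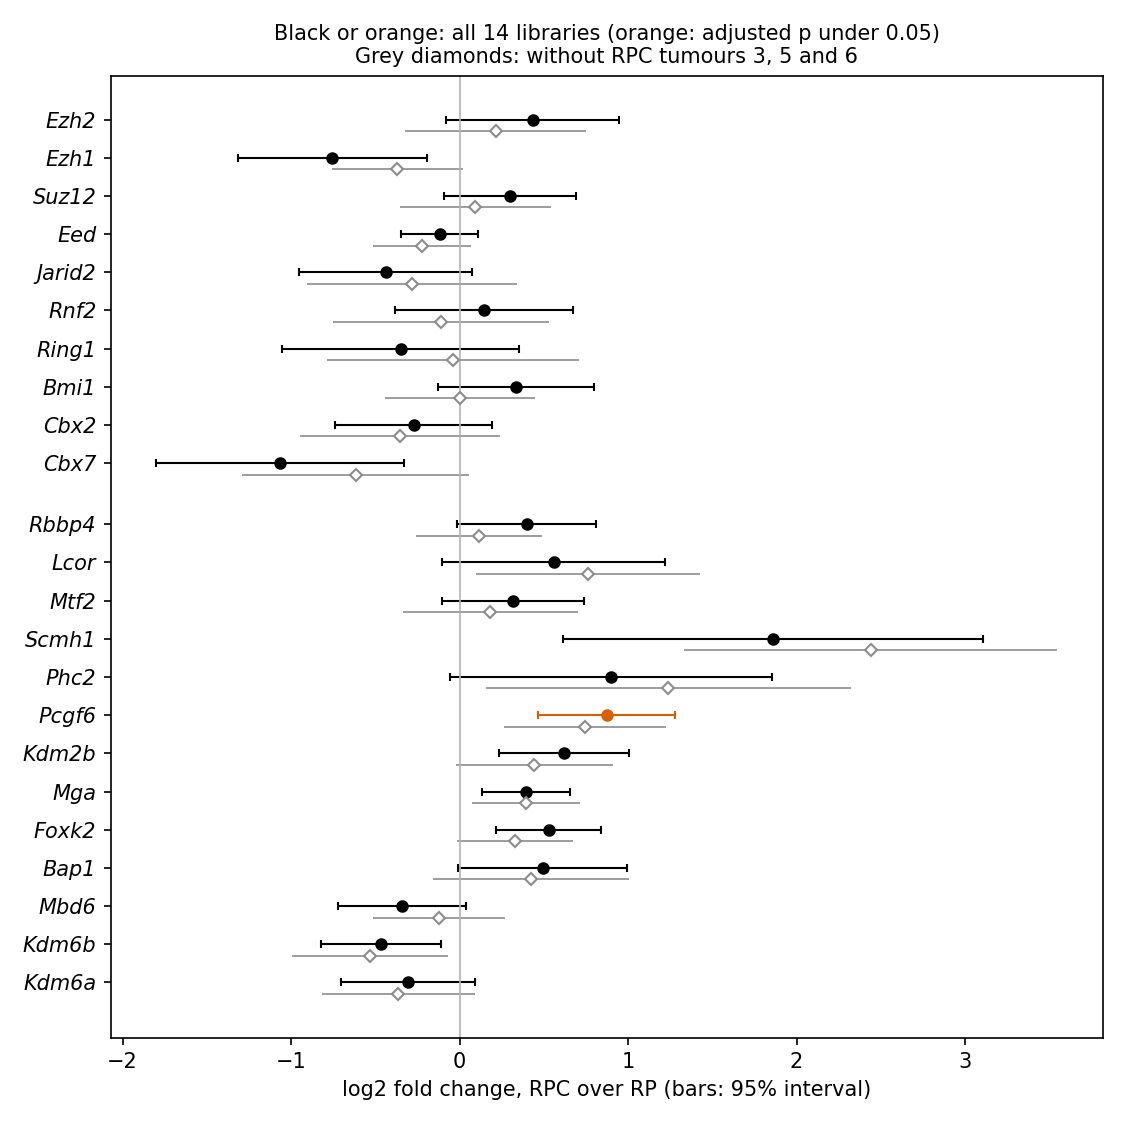
Log2 fold change of RPC over RP for the 10 members (top) and for other Polycomb genes and H3K27 demethylases described in the text (bottom), with 95% intervals. Round points use all 14 libraries and diamonds leave out RPC tumours 3, 5 and 6: Pcgf6 at 0.87 is the only gene called, and Ezh1 and Cbx7 lie nearer to 0 as diamonds, at -0.37 and -0.62.

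Among the 16 variant PRC1 genes, 4 were higher and 2 lower at an unadjusted p under 0.05, a level that 21.3% of all tested genes reached. Kdm2b, a CpG island reader that brings PRC1 to DNA, averaged 93.1 ± 21.3 CPM in RPC and 60.6 ± 13.1 CPM in RP tumours (SD, n = 7 each; log2 fold change 0.62, edgeR adjusted p = 0.0774), and Mga, a MAX partner of the Pcgf6 complex, 178.9 ± 23.5 and 136.2 ± 21.3 CPM (0.39, adjusted p = 0.0955). Kdm2b was called without RPC tumour 7 (0.72, adjusted p = 0.0247) and Mga without RP tumour 3 (0.45, 0.0456).

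Of the 9 further canonical PRC1 genes 0 were called by edgeR, with 1 higher and 1 lower at an unadjusted p under 0.05. DESeq2 called 2, Scmh1 among them, where it called 9.20% of all genes. Scmh1 and Phc2, which encode a SAM domain protein and a polyhomeotic protein of canonical PRC1, were each very high in 1 or 2 RPC tumours. Both are on chromosome 4, as are Rbbp4, Cdkn2a and Cdkn2b, described below. Whether location bears on these levels was not tested. Scmh1 reached 1129 and 514.9 CPM in RPC tumours 1 and 2, against 72.9 to 112.2 CPM in RP tumours, and was 63.5 to 188.1 CPM in the other 5. RPC tumours 1, 2, 5 and 7 were above every RP tumour. Scmh1 came to 1.86 in log2 fold change (SE 0.58; edgeR, adjusted p = 0.0963), 1.06 without RPC tumour 1 (adjusted p = 0.183) and 2.44 without RPC tumours 3, 5 and 6 (adjusted p = 0.10). Phc2 reached 1104 CPM in RPC tumour 4, against 126.2 to 239.7 CPM in the other RPC tumours and 125.1 to 246.0 CPM in RP tumours. For Phc2 it was 0.90 (SE 0.45, edgeR adjusted p = 0.265), 0.10 without RPC tumour 4 and 1.24 without RPC tumours 3, 5 and 6 (adjusted p = 0.345).

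**Figure D4:**
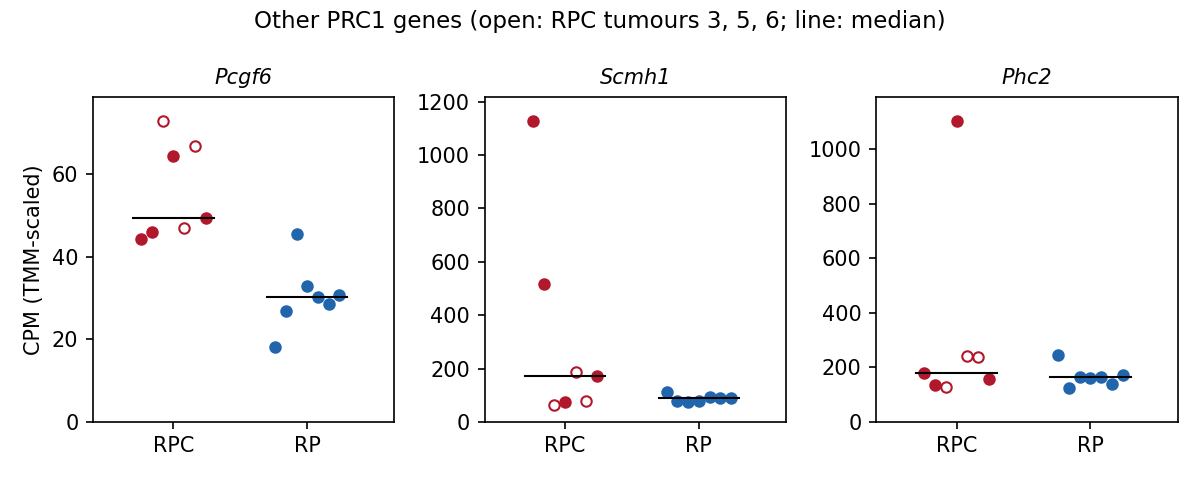
Level in CPM (vertical axes from 0) of Pcgf6, Scmh1 and Phc2 in 7 RPC and 7 RP tumours, 1 point per tumour, with lines at the medians and open points for RPC tumours 3, 5 and 6. Pcgf6 separates all RPC tumours but 1 from RP tumours, whereas single RPC tumours stand far above the rest at 1129 CPM for Scmh1 and 1104 CPM for Phc2.

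Further PRC2 subunits gave 0 calls among 9 (edgeR; 0 at an unadjusted p under 0.05; 0 by DESeq2). Rbbp4, a histone chaperone that PRC2 shares with other complexes, averaged 512.9 ± 180.4 CPM in RPC and 389.1 ± 55.5 CPM in RP tumours (SD, n = 7 each; log2 fold change 0.40, edgeR adjusted p = 0.253), with RPC tumour 5 at 886.8 CPM. Lcor and Mtf2 had log2 fold changes of 0.56 and 0.32 (adjusted p = 0.316 and 0.369). The 10 genes of the PR-DUB complex, which removes the PRC1 mark, gave 0 calls by edgeR, with 1 higher at an unadjusted p under 0.05. DESeq2 called 1 gene of the PR-DUB complex, where it called 9.20% of all genes. Foxk2, a forkhead factor that binds this complex, averaged 199.2 ± 41.4 and 137.9 ± 19.7 CPM in RPC and RP tumours (log2 fold change 0.53, adjusted p = 0.0672), Bap1, the deubiquitinase, had a log2 fold change of 0.49 (0.246) and Mbd6 one of -0.34 (0.286). Leaving out RP tumour 3 or RPC tumour 7 brought Foxk2 past the threshold (0.59 and 0.58, adjusted p = 0.0385 and 0.0383). Without RPC tumours 3, 5 and 6, Rbbp4 was at 0.12 and Foxk2 at 0.33.

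The demethylases that erase the H3K27 mark were not called either (edgeR; 1 of 2 lower at an unadjusted p under 0.05; 0 by DESeq2). Kdm6b was 84.7 to 173.1 CPM in RPC tumours, with a median of 110.7, and 140.4 to 227.9 CPM in RP tumours, with a median of 164.2. RPC tumours 2, 4, 5, 6 and 7 were below the RP range. The log2 fold change was -0.47 (SE 0.17, 95% interval -0.83 to -0.11, edgeR adjusted p = 0.131), and -0.53 without RPC tumours 3, 5 and 6. Kdm6a averaged 95.9 ± 27.1 CPM in RPC and 118.6 ± 19.4 CPM in RP tumours (SD, n = 7 each; -0.31, adjusted p = 0.363).

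Genes known from other tissues as Polycomb targets were read last. At the INK4 locus, which Bmi1 and Cbx7 are known to repress, Cdkn2a was 109.4 to 280.2 CPM in RPC tumours, with a median of 207.5, and 118.7 to 318.7 CPM in RP tumours, with a median of 186.0 (log2 fold change 0.03, 95% interval -0.45 to 0.51, edgeR adjusted p = 0.959, with a sign that turned in 5 of 14 fits that left out 1 library). Cdkn2b was 7.70 to 26.7 CPM in RPC and 8.79 to 21.8 CPM in RP tumours (-0.25, adjusted p = 0.651). Both genes had reads in every tumour.

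The HOX clusters, classic targets of Polycomb in development, held reads mainly from Hoxb2 to Hoxb9. Of 39 Hox genes, 8 passed the filter, which asks for reads in enough libraries, Hoxb2 to Hoxb8 and Hoxa5. Hoxb9, at 450.1 CPM in RPC tumour 3 and 192.3 CPM in RP tumour 1, did not. Of the tested genes 0 of 8 were called (edgeR; 0 at an unadjusted p under 0.05; 0 by DESeq2, which gave 14 of the 39 an adjusted p). All 8 log2 fold changes were negative (median -0.90), but 7 of the 8 are neighbours in 1 cluster and are not independent, and the 8 passed the filter on their levels in these tumours. Summed over Hoxb2 to Hoxb9, the level was 0.434 to 1452 CPM in RPC tumours, with RPC tumours 3, 6 and 1 at 1452, 558.7 and 248.1 CPM and RPC tumours 5, 7 and 2 at 0.434, 5.61 and 20.7 CPM. In RP tumours the sum was 55.6 to 1419 CPM, highest in RP tumours 3, 1 and 2 and lowest in RP tumour 7.

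All 8 genes of that stretch were at 10 CPM or more in RPC tumours 3 and 6 and in RP tumours 1, 2 and 3, and none were in RPC tumours 2, 5 and 7. RP tumours 4, 5 and 6 had the genes of the Hoxb2 end and little of the Hoxb9 end: Hoxb2 was at 13.1, 86.3 and 196.1 CPM there and Hoxb9 at 0.197 to 0.363 CPM. RPC tumour 4 did not follow this order, with Hoxb2 at 1.18 CPM, Hoxb5 at 77.2 CPM and Hoxb9 at 0.168 CPM. Hoxb3 ran from 0 through 6.44 to 125.5 CPM in RPC tumours, against 15.2, 95.7 and 122.5 CPM in RP tumours, with RPC tumours 2, 4, 5 and 7 below every RP tumour. Its log2 fold change was -1.33 (95% interval -3.47 to 0.81, edgeR adjusted p = 0.463) and -3.09 without RPC tumours 3, 5 and 6 (SE 0.80, adjusted p = 0.161). Hoxb2 followed the same tumours (-1.25, adjusted p = 0.547), and Hoxa5 stayed at or under 4.29 CPM in all 14. The Hoxa and Hoxc genes, Hoxb1 and Hoxb13 reached at most 4.29 CPM. The 9 Hoxd genes were at most 1.19 CPM except in RP tumour 1, where 2 of them passed 10 CPM and the highest was at 19.1 CPM. The sums over the cluster were chosen after the values were seen.

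**Figure D5:**
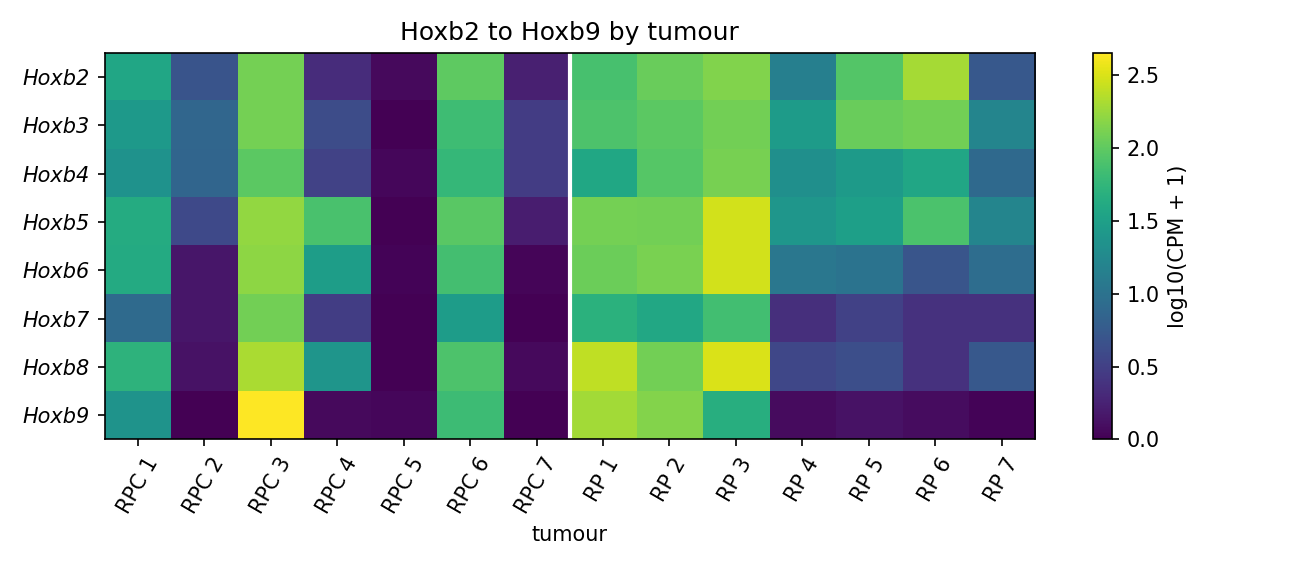
Heat map of Hoxb2 to Hoxb9 (rows) in 7 RPC and 7 RP tumours (columns), colour giving log10(CPM + 1). The stretch is darkest in RPC tumours 2, 5 and 7, with sums of 20.7, 0.434 and 5.61 CPM, and bright in RPC tumours 3 and 6 and RP tumours 1, 2 and 3.

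RPC tumours 3 and 5, at either end of the Hoxb range, were both low in Ezh1, at 32.4 and 15.8 CPM, and in Cbx7, at 29.2 and 24.9 CPM, and differed in Ezh2, at 261.6 and 118.6 CPM, and in Bmi1, at 171.6 and 294.9 CPM. No test was made of Hoxb against the members, since these tumours were picked for their Hoxb levels.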

How the data were processed

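Per the labels, RNA selected with oligo dT from 14 mouse tumours was sequenced, and the authors deposited 1 table of read counts per gene and tumour. The submitters' processing notes name bcl2fastq 1.8.2, TopHat2 2.0.12, HTSeq 0.6.1 and the mm9 genome; the strand setting is not given in the sources used here, so reads of overlapping or antisense genes may be shared. The 5 special rows were left out of all totals (no feature 15.1 to 20.5%, not unique 8.44 to 11.2%, ambiguous 0.883 to 1.09% of all counted reads). The test was the quasi-likelihood one of edgeR 4.0.16 in R 4.3.3, with TMM scaling, on genes that filterByExpr kept at a count of 10 and a total of 15, with Benjamini-Hochberg adjustment at 0.05. The procedure was checked on simulated data with 7 libraries against 7. A built-in difference of 2-fold was found for 27.3% of 99 altered genes. At 4-fold the share found was 61.5% of 96. Among 87 calls 1 was false. The altered genes were drawn from all tested genes, so most differences near 2-fold would be missed over all genes. The share for genes with the members' levels and spread was not worked out. DESeq2 1.42.0, limma-voom 3.58.1, other scalings and filters, added model terms and left-out libraries were tried. Named genes are the members, Crebbp, Ep300, called genes and otherwise up to 3 of smallest p per related list, and the 3 genes most like each member. Results for 2 genes that this rule names are not reported here. Members and lists were chosen with earlier results of these data known. No 2 libraries of a genotype agreed within sampling noise (42 pairs, lowest chi-square per degree of freedom 59.2).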

Additional observations from a re-analysis of the deposited data

Results flagged for a closer look

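In 11 of 62 groups of 7 tumours, 1 tumour stood far from its nearest neighbour by Dixon's criterion, each time on the high side. The criterion's rate of about 1 in 20 holds for independent, normally distributed values. Here CPM were not logged and the groups share the same 14 tumours, so the count cannot be set against chance. RP tumour 3 accounted for 4: Rnf2 was at 90.3 CPM with the next RP tumour at 51.1, Jarid2 at 201.4 CPM with the next at 121.1, Rbbp4 at 502.1 CPM with the next at 396.2, and Mtf2 at 147.7 CPM with the next at 94.2. Cbx7 was at 215.5 CPM in RP tumour 6 (next 122.6), Phc2 at 246.0 CPM in RP tumour 1 (next 172.5), Mbd6 at 291.3 CPM in RP tumour 5 (next 210.3) and Hoxa5 at 4.29 CPM in RP tumour 4 (next 2.52). Among RPC tumours, Scmh1 was at 1129 CPM in tumour 1 (next 514.9), Phc2 at 1104 CPM in tumour 4 (next 239.7) and Rbbp4 at 886.8 CPM in tumour 5 (next 526.5).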

How the results depend on the processing

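Over 24 alternatives, 236 of 240 values of the members kept their direction, 4 reversed and 2 were called, both for Cbx7. Most alternatives reuse nearly the same libraries, 14 of them leaving out only 1, so kept directions are no independent support. The 4 reversals, of Bmi1 and Rnf2, came with an added term or without RPC tumours 3, 5 and 6. Over all genes 327 were called in the fit reported, 1595 with DESeq2, 503 with limma-voom, 74 with the replicate number as a block, 5 with a term for non-tumour markers, 44 with a term for proliferation genes, 11 without RPC tumours 3, 5 and 6, and 51 (without RP tumour 6) to 898 (without RP tumour 3) when 1 library was left out; the cause was not tested. Members called were 0, but 1 with DESeq2 and 0 to 1 when 1 library was left out. Same-numbered tumours correlated at -0.05 to 0.32 in their deviations, so the numbers were not taken to pair them, and with the block 0 members were called. The term for non-tumour markers reversed Bmi1 to -0.0713, Rnf2 to -0.21, Cdkn2b to 0.12 and Hoxa5 to 0.0583. The term for proliferation genes reversed Rnf2 to -0.11, Ep300 to 0.0759, Cdkn2b to 0.0445 and Cdkn2a to -0.059. Without RPC tumours 3, 5 and 6, Rnf2 was -0.11 and Cdkn2b 0.055. Leaving out 1 library, Cdkn2a ran from -0.0692 to 0.183. The Crebbp difference was -0.26 on plain CPM (exact two-sided permutation p = 0.042), and from -0.28 to -0.17 when 1 library was left out, past 0.05 without RP tumour 2, 4 or 6. Members had at least 117 counts each per library, and 31 of 39 Hox genes did not pass the filter.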
